A study of Mus musculus with 225 samples.

Results

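Cohesin, its loader and *Ctcf* were followed as 9 genes in single cells of the mouse forelimb. The members were chosen by symbol, as *Nipbl*, *Smc1a*, *Smc3*, *Rad21*, *Stag1*, *Stag2*, *Pds5a*, *Pds5b* and *Ctcf*, and all 9 were found among the 10948 genes of the normalized table. Cohesin is a ring-shaped complex built from *Smc1a*, *Smc3* and *Rad21*, to which either *Stag1* or *Stag2* binds. *Nipbl* loads it onto DNA, *Pds5a* and *Pds5b* regulate its release and its acetylation, and CTCF, a zinc finger protein, halts it at oriented binding sites, so that chromatin loops and domain borders form. Loops of this kind frame the regulatory landscapes of the *HoxD* cluster in the limb, and the same complex holds sister chromatids together until mitosis.

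The cells came from forelimbs at E12.5 of mixed C57Bl6CBAF1 embryos that were heterozygous for *Hoxd11::GFP*, a tau-GFP sequence knocked in frame into *Hoxd11* and carried by the cells of both tissues. Cells with bright GFP were sorted from the autopod (presumptive digits) or the zeugopod (forearm) and lysed singly on a Fluidigm C1 chip, so that the data describe GFP-positive cells and not the whole limb bud. Of 225 captured cells, 199 are in the normalized table, 76 from the autopod (59 in sequencing run NXT0072 and 17 in NXT0143) and the others from the zeugopod (58 in NXT0142 and 65 in NXT0143). Forelimbs of several embryos were pooled and no embryo is named for a cell. Each tissue is therefore 1 sample without a replicate, and differences are given with no p-value.

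Reads on genes ranged from 187344 to 9437447 per autopod cell and from 186271 to 6801278 per zeugopod cell, and between 1801 and 6162 genes had at least 1 read. At least 2 of the autopod markers *Hoxd13*, *Hoxa13* and *Msx1* had 5 reads or more in 46 of 59 autopod cells of NXT0072 and 8 of 17 of NXT0143, and in 0 zeugopod cells. At least 2 of the zeugopod markers *Shox2*, *Meox2* and *Hoxa11* did so in 27 of 58 and 34 of 65 zeugopod cells and in 0 autopod cells. No cell reached the required markers of muscle, epithelium, endothelium or macrophages, whose summed levels were 0 CPM (reads scaled to the same total on genes in each cell) in the median cell of every tissue and run and reached at most 1741 CPM for epithelium, 98.3 for muscle, 19.2 for endothelium and 10.7 for macrophages. At least 3 of 5 chondrogenic markers were found in 27, 8, 19 and 19 cells of the groups in the order given above. The limb mesenchyme markers *Prrx1*, *Prrx2* and *Twist1* were less common in NXT0143, where at least 2 were found in 3 of 17 autopod and 7 of 65 zeugopod cells, against 37 of 59 and 17 of 58 in the other runs.

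Each of the 9 mRNAs was found in about every second cell. At least 5 reads of a member were present in 50% to 64.5% of autopod cells, with a median over the 9 genes of 56.6%, and in 39.8% to 69.9% of zeugopod cells, with a median of 57.7%. The median gene of the normalized table reached 5 reads in 17.1% of autopod and 19.5% of zeugopod cells. Values were split between absent and abundant. Of the 1791 values for 9 genes in 199 cells, 593 (33.1%) were 0 reads, 205 (11.4%) were 1 to 4 reads, and 707 (39.5%) were at least 100 reads. After each cell had been thinned at random to 500000 reads, which 56, 16, 56 and 63 cells of the groups could supply, the median share was 47.2% in the autopod and 51.3% in the zeugopod. Intervals of shares are exact binomial (Clopper-Pearson, 95%) and, as the reads carry no molecular identifiers, cover counting error only.

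**Figure D1:**
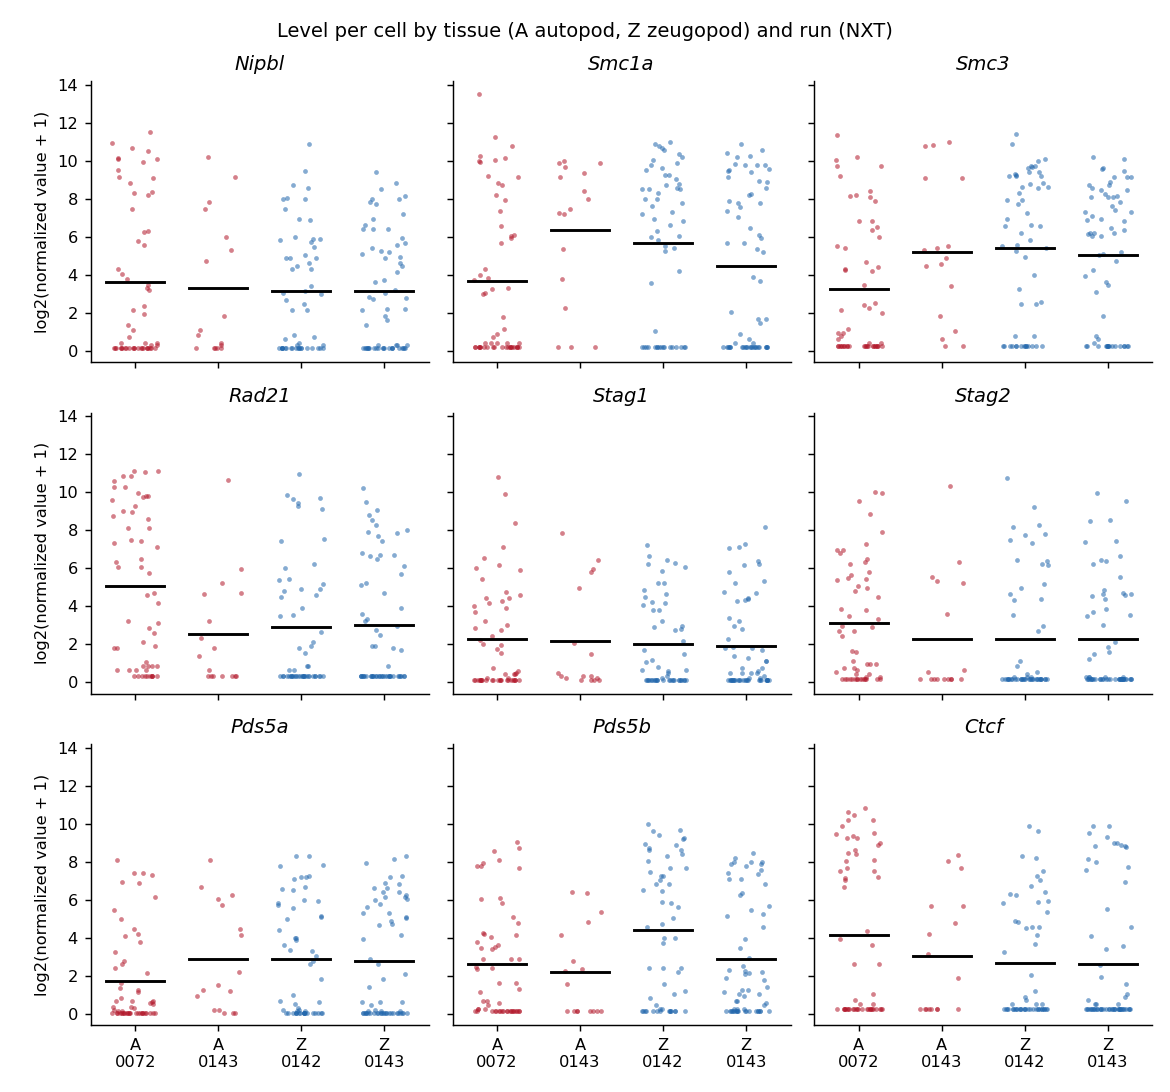
Level of each gene in single cells, as log2(normalized value + 1), in autopod (A, red) and zeugopod (Z, blue) cells of each sequencing run. Each point is 1 of the 199 cells, black bars are means, and points near 0 are cells at or near the floor, with no or few scaled reads. *Rad21* had a mean of 5.08 in autopod cells of NXT0072 and of 2.53 to 3.01 in the other groups.

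*Nipbl* (ENSMUSG00000022141, GRCm38 chromosome 15, 8290617 to 8444463, minus strand), the loader, was at least at 5 reads in 41 of 76 autopod cells (53.9%, interval 42.1 to 65.4%) and 72 zeugopod cells (58.5%, 49.3 to 67.3%). Its normalized value, in spike-in-scaled reads per kb, had a floor of 0.113 in cells without reads, a median of 1.35 and a maximum of 2950 in autopod cells, and a median of 5.42 and a maximum of 1865 in zeugopod cells. By run the share was 54.2% and 52.9% in the autopod and 56.9% and 60% in the zeugopod. The 4 groups overlapped throughout, and the share moved less between them than that of any ring gene.

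Among the genes of the ring, *Smc1a* (ENSMUSG00000041133, X chromosome, 152016428 to 152062694) and *Smc3* (ENSMUSG00000024974, chromosome 19, 53600398 to 53645833), the 2 coiled-coil ATPases of the complex, were found in fewer cells of the NXT0072 autopod than elsewhere. *Smc1a* had 5 reads in 29 of 59 such cells (49.2%, 35.9 to 62.5%), against 82.4% (56.6 to 96.2%) in the other autopod run and 70.7% and 60% in the zeugopod runs NXT0142 and NXT0143. *Smc3* had 5 reads in 50.8% (37.5 to 64.1%) of the NXT0072 cells, against 76.5%, 69% and 70.8% in the same order. Median normalized values followed, with 1.21 for *Smc1a* in the NXT0072 autopod and 13.6 to 178 in the other groups, and 1.26 for *Smc3* against 29.1 to 82.1.

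*Rad21* (ENSMUSG00000022314, chromosome 15, 51962240 to 51991747), the kleisin that closes the ring and is cut at anaphase, showed the opposite picture. It had 5 reads in 41 of 59 NXT0072 cells (69.5%, 56.1 to 80.8%) and in 47.1%, 44.8% and 49.2% of the cells of the other groups, with median normalized values of 25.1 in the first and 0.691 to 1.66 in the others. After thinning the shares were 58.9% against 31.2%, 37.5% and 41.3%, so that the NXT0072 autopod was still the highest at equal depth. All 3 ring genes were found together in 22 of 76 autopod cells (28.9%, 19.1 to 40.5%) and 32 zeugopod cells (26%, 18.5 to 34.7%).

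The alternative subunits *Stag1* (ENSMUSG00000037286, chromosome 9, 100597798 to 100959375) and *Stag2* (ENSMUSG00000025862, X chromosome, 42149317 to 42277185) were not exclusive of each other. Both had 5 reads in 24 autopod cells (31.6%), *Stag1* without *Stag2* in 14, *Stag2* without *Stag1* in 20, and neither in 18. In the zeugopod the numbers were 28 (22.8%), 35, 22 and 38 cells. *Stag1* was at a like share in all 4 groups (47.1% to 53.4%), whereas *Stag2* was found in 64.4% (50.9 to 76.5%) of the NXT0072 autopod cells and in 35.3% to 43.1% of the cells of the other groups. Where at least one of the genes had 5 reads, the normalized value of *Stag1* was the higher in 25 of 58 autopod and 45 of 85 zeugopod cells.

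Of the regulators, *Pds5a* (ENSMUSG00000029202, chromosome 5, 65605721 to 65698273) had 5 reads in 59.2% of autopod and 57.7% of zeugopod cells, and *Pds5b* (ENSMUSG00000034021, chromosome 5, 150673739 to 150810690) in 53.9% and 65.9%. Both were found together in 26 autopod cells (34.2%) and 56 zeugopod cells (45.5%), and neither in 16 and 27. *Pds5b* differed between the zeugopod runs, with 70.7% of cells and a median normalized value of 24 in NXT0142 against 61.5% and 1.72 in NXT0143. *Ctcf* (ENSMUSG00000005698, chromosome 8, 105636568 to 105682922, plus strand) had 5 reads in 39 autopod cells (51.3%, 39.6 to 63%) and 49 zeugopod cells (39.8%, 31.1 to 49.1%). In cells that held it, its median normalized value was 350 in the NXT0072 autopod and 51.1, 59 and 233 in the other groups. *Ctcf* overlaps the coding gene *Agrp* on the opposite strand and 6 of the 9 loci overlap other annotated genes, none of them coding except at *Ctcf*. Whether counting used strand is not given in the sources used here, and without it reads of overlapping genes could not be told apart.

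The order of the levels could be set against the runs. In the zeugopod the means of log2(normalized value + 1) were 5.23 for *Smc3*, 5.04 for *Smc1a*, 3.62 for *Pds5b*, 3.17 for *Nipbl*, 2.96 for *Rad21*, 2.82 for *Pds5a*, 2.67 for *Ctcf*, 2.29 for *Stag2* and 1.99 for *Stag1*. The ranges spanned by the 2 runs overlapped for 2 of the 8 neighbouring pairs, *Smc3* with *Smc1a* and *Pds5b* with *Nipbl*. A range between 2 run means measures no error, and *Rad21* (2.90 to 3.01) lay just above *Pds5a* (2.76 to 2.89). In the autopod the order was *Rad21* (4.51), *Smc1a* (4.27), *Ctcf* (3.93), *Smc3* (3.69), *Nipbl* (3.55), *Stag2* (2.92), *Pds5b* (2.54), *Stag1* (2.26) and *Pds5a* (2.02). There the ranges overlapped for 7 of 8 neighbouring pairs, all but *Nipbl* with *Stag2*. On this scale the zeugopod runs gave a like order, apart from *Smc3* with *Smc1a* and from *Pds5b*. The latter had 4.44 in NXT0142 and 2.89 in NXT0143, there below *Rad21* (3.01). The autopod runs did not separate the order. Values are divided by gene length, from 3.62 kb for *Rad21* to 18.99 kb for *Pds5a*. In log2(CPM + 1), without that division, zeugopod means put *Pds5a* (4.28) above *Nipbl* (4.06) and *Stag1* (2.92) above *Ctcf* (2.69).

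A first question was whether the architectural genes differ between digit and forearm cells. As the mean log2(normalized value + 1) of the autopod minus that of the zeugopod, *Rad21* was higher in the autopod by 1.55 (means of 4.51 and 2.96) and *Ctcf* by 1.26 (3.93 and 2.67). *Smc3* was lower by 1.54 (3.69 and 5.23, a difference of −1.54) and *Pds5b* gave −1.08 (2.54 and 3.62). *Pds5a* gave −0.80, *Smc1a* −0.77, *Stag2* 0.63, *Nipbl* 0.38 and *Stag1* 0.27. Thus 2 of the 9 genes were at least 1 higher and 2 at least 1 lower, where 2.83% and 6.26% of all 10948 genes were, or 6.06% and 13.4% of the 4898 genes that reached 5 reads in 25% of the cells of a tissue. The count depended on the cells and the scale. Leaving out cells with cell type markers removed 35 autopod and 38 zeugopod cells, all of them chondrogenic by these markers, and kept 41 and 85. In the cells kept, *Smc3* gave −0.70, *Pds5b* −0.90, *Stag2* 1.30 and *Smc1a* 0.17. In log2(CPM + 1) over all cells, *Smc1a* (−1.02) and *Pds5a* (−1.13) were also past −1. The 9 genes had a median of 0.27 and that over all genes −0.04.

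None of these differences of 1 or more was found again at that size within NXT0143, where 17 autopod cells and 65 zeugopod cells shared a run. There *Rad21* gave −0.47, *Ctcf* 0.40, *Smc3* 0.13 and *Pds5b* −0.70. *Smc1a*, at −0.77 over all cells, gave 1.92 (means of 6.38 and 4.45) and was the only member past 1, against 10.9% of all genes that were at least 1 higher and 5.17% that were at least 1 lower. In the comparison of NXT0072 autopod with NXT0142 zeugopod cells, in which run and tissue cannot be told apart, *Rad21* gave 2.17, *Ctcf* 1.5, *Smc3* −2.16, *Smc1a* −2.03, *Pds5b* −1.80 and *Pds5a* −1.12. There 2 members were higher and 4 lower, against 3.27% and 12.3% of all genes. *Nipbl* (0.13 and 0.46), *Stag1* (0.23 and 0.25) and *Stag2* (0.03 and 0.79) stayed below 1 in both comparisons. These 3 genes, *Pds5b* and *Ctcf* kept their sign, and the other 4 did not.

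**Figure D2:**
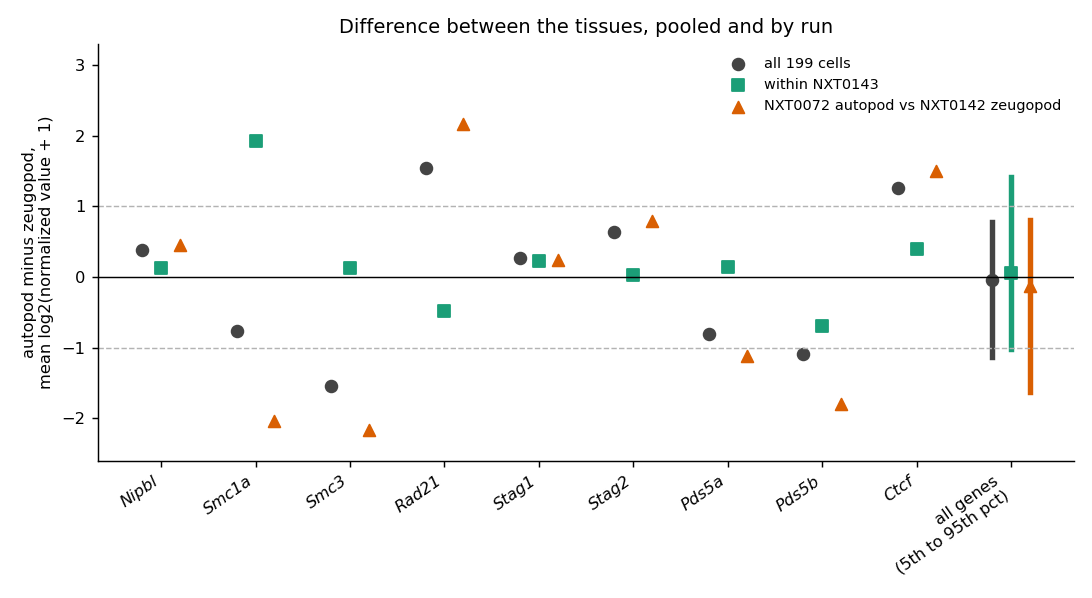
Autopod minus zeugopod difference in mean log2(normalized value + 1) over all 199 cells (circles), within run NXT0143 (squares) and between runs NXT0072 and NXT0142 (triangles). Vertical bars at the right span the 5th to 95th percentile of all 10948 genes around their median, and dashed lines mark 1 and −1. *Smc1a* lay at 1.92 within NXT0143 and at −2.03 between the other runs, and *Rad21* at −0.47 and 2.17.

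The autopod runs differed from each other by more than the tissues did for *Rad21*, *Smc1a*, *Smc3*, *Pds5a* and *Stag2*, and the zeugopod runs did so for *Pds5b* and *Smc1a*. Between the autopod runs, NXT0072 minus NXT0143, *Rad21* gave 2.54, *Ctcf* 1.13, *Smc1a* −2.71, *Smc3* −1.95 and *Pds5a* −1.14, so that 2 members were at least 1 higher and 3 at least 1 lower, against 6.7% and 13% of all genes. Between the zeugopod runs, NXT0142 minus NXT0143, *Pds5b* gave 1.55 and *Smc1a* 1.24, and the other 7 lay between −0.10 and 0.34, against 7.51% of all genes at least 1 higher and 0.63% at least 1 lower. *Nipbl* had means of 3.17 and 3.16 in the zeugopod runs. Size factors were centred within batches by the authors. Whether these batches were the runs is not given in the sources used here, so that a level set across runs may also hold this centring.

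Most members were found more often in cells with several markers of the cell cycle, which also held more genes. *Rad21* was the clearest in both tissues once the genes detected were taken into account, as given below. Cells were counted by how many of *Mki67*, *Top2a*, *Ccnb1* and *Cdk1*, which are transcribed in dividing cells, had at least 5 reads. *Rad21* had 5 reads in 18 of 18 autopod cells with 3 or 4 markers and in 12 of 25 (48%, 27.8 to 68.7%) without any, and in 22 of 23 zeugopod cells (95.7%, 78.1 to 99.9%) with 3 or 4 against 19 of 67 (28.4%, 18 to 40.7%) without. *Smc1a* had 5 reads in 16 of 18 and 23 of 23 cells with 3 or 4 markers and in 12 of 25 and 39 of 67 without, for the autopod and zeugopod in turn. Cells with 1 or 2 markers held *Smc1a* no more often than those without, at 45.5% and 54.5% against 48% and 58.2%. For *Ctcf* the numbers were 15 of 18 and 16 of 23 against 7 of 25 and 20 of 67. *Stag2* was found in 77.8% and 69.6% of cells with 3 or 4 markers against 44% and 32.8% without, although within the NXT0072 autopod it was in 75% against 64.3%. *Stag1* was found in 72.2% and 73.9% against 44% and 47.8%, and *Pds5b* in 61.1% and 91.3% against 56% and 55.2%.

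In the zeugopod the loader, *Smc3* and *Pds5a* followed these markers less than the other members. In the autopod *Nipbl* had a rank correlation of 0.28 with the number of markers, above *Pds5b* (0.25) and *Stag1* (0.18). *Pds5a* (0.12) and *Smc3* (0.05) were the lowest there. The autopod mean of log2(normalized value + 1) for *Nipbl* was 5.04 with 3 or 4 markers and 1.89 without. *Pds5a* was found in 72.2% and 60.9% of cells with 3 or 4 markers and in 52% and 55.2% of cells without. *Nipbl* was found in 61.1% (35.7 to 82.7%) and 65.2% (42.7 to 83.6%) of cells with 3 or 4 markers and in 44% and 53.7% of cells without, and *Smc3* in 50% and 78.3% against 64% and 64.2%, with intervals that overlap. As a scale from the related genes, the condensin subunit *Smc4*, which compacts mitotic chromosomes, was found in 18 of 18 and 23 of 23 such cells and in 6 of 25 and 9 of 67 without markers, and *Esco2*, the acetyltransferase of S-phase cohesin, in 13 of 18 and 17 of 23 against 0 of 25 (limit of 12%, as 3 counts of the total) and 1 of 67.

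Cells with more markers also held more genes, with medians of 4170.5 against 3363 genes in the autopod and 5053 against 3745 in the zeugopod. At 500000 reads *Rad21* was still found in 16 of 17 against 8 of 25 autopod cells and 21 of 23 against 15 of 65 zeugopod cells. Given the genes detected per cell, the rank correlation of *Rad21* with the number of markers was 0.51 over 76 autopod cells and 0.29 over the zeugopod cells, where the median gene had 0.03 and −0.01 and the 95th percentile was 0.31 and 0.16. Of the 9 genes, only *Rad21* lay above that percentile in both tissues, and *Ctcf* did so in the autopod. *Ctcf* gave 0.44 and 0.06, *Stag2* 0.29 and 0.14, *Stag1* 0.08 and 0.11 and *Smc1a* 0.22 and −0.02. *Pds5b* gave 0.14 and 0.03, *Nipbl* 0.09 and −0.11, *Pds5a* −0.06 and −0.0004 and *Smc3* −0.16 and −0.06. These are descriptions across cells of pooled embryos, and the values of each tissue mix 2 runs. In shares at full depth *Rad21* kept its direction in each tissue and run. It was in 16 of 16 against 8 of 14 cells, 2 of 2 against 4 of 11, 13 of 14 against 6 of 31 and 9 of 9 against 13 of 36. Given the genes detected, its correlations in these groups were 0.54, 0.04, 0.32 and 0.26. In the 17 autopod cells of NXT0143, 40% of genes were at least as high. *Ctcf* in zeugopod cells of NXT0143 differed little, with 3 of 9 against 11 of 36.

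**Figure D3:**
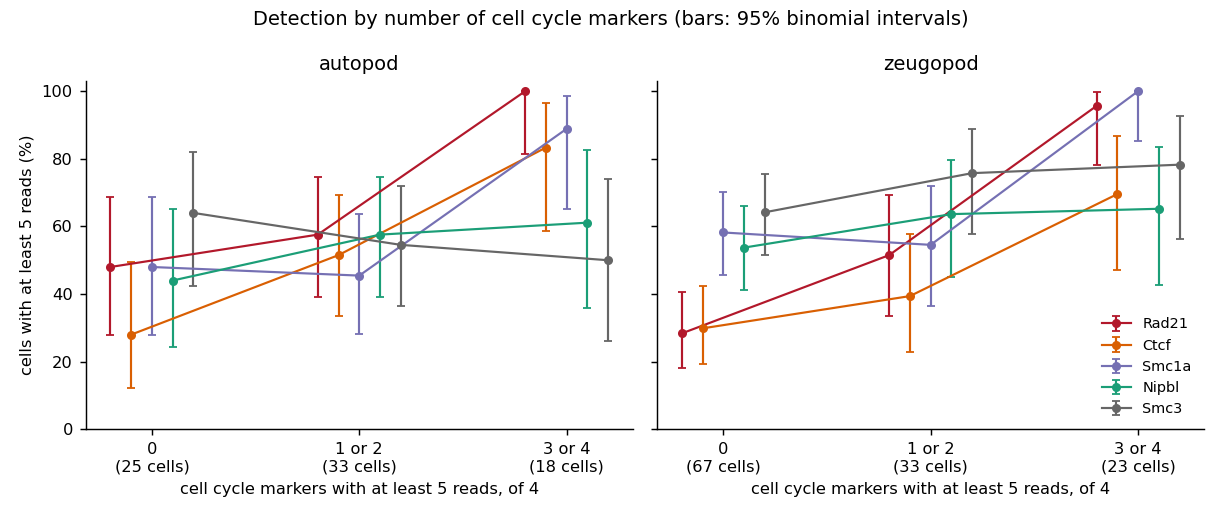
Share of cells with at least 5 reads of *Rad21*, *Ctcf*, *Smc1a*, *Nipbl* and *Smc3*, in percent, among cells with 0, 1 or 2, and 3 or 4 of 4 cell cycle markers. Bars are 95% binomial intervals, which cover counting error only. *Rad21* reaches 100% in the autopod and 95.7% in the zeugopod.

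The marker-positive cells were not evenly spread over the runs. At least 1 marker was found in 45 of 59 autopod cells of NXT0072 (76.3%, 63.4 to 86.4%), 6 of 17 of NXT0143 (35.3%, 14.2 to 61.7%), 27 of 58 zeugopod cells of NXT0142 (46.6%) and 29 of 65 of NXT0143 (44.6%). When cells with any marker were left out, a comparison added after seeing the data, 25 autopod and 67 zeugopod cells remained. In the autopod 14 were of NXT0072 and 11 of NXT0143, with medians of 2858 and 3908 genes. In the zeugopod 31 were of NXT0142 and 36 of NXT0143. The mix of runs in the autopod thus changed as well, and its part in the values below was not tested. *Rad21* then differed by 0.49 between the tissues and *Ctcf* by −0.19, where all cells had given 1.55 and 1.26. Between the autopod runs *Rad21* gave 0.00 as rounded and *Ctcf* −0.64, whereas *Smc1a* (−4.02) and *Smc3* (−2.48) differed by more than before. *Smc1a* between the zeugopod runs went from 1.24 to −0.08, and *Nipbl* between the tissues from 0.38 to −1.07.

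The second question was how the 9 genes relate to *Hoxd* transcription, for which CTCF and cohesin are known to shape the neighbouring chromatin. A *Hoxd* gene was taken as on when its normalized value was 5 or more and not under 5% of the value of the top *Hoxd* gene in that cell. The number of *Hoxd8* to *Hoxd13* genes on correlated by rank with *Nipbl* at 0.43 over 76 autopod cells, the highest of the 9 genes, with *Smc3* at 0.32 and with *Pds5a* at 0.29, and the median of the 9 was 0.22. The median of the 4109 genes with at least 5 reads in 25% of cells was 0.19, and their 95th percentile 0.39. Cells with more *Hoxd* genes on also held more genes in all, with a median of 2800 genes in the 23 cells with 1 *Hoxd* gene on and 5557 in the 9 cells with 4.

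Given the number of genes detected, the values over all autopod cells were lower. *Nipbl* had a partial rank correlation of 0.14, *Smc3* of 0.06, *Pds5b* of 0.06, *Pds5a* of 0.05, *Rad21* of 0.02, *Ctcf* of −0.03, *Stag1* of −0.17, *Stag2* of −0.21 and *Smc1a* of −0.24. The median was 0.02, against 0.00 for all genes, whose 5th and 95th percentiles were −0.18 and 0.19. The runs could differ, and *Smc3* gave 0.23 in NXT0072 and −0.46 in the 17 cells of NXT0143. With *Hoxd13* itself *Smc3* gave 0.30 in NXT0072 and −0.03 in NXT0143. In the zeugopod, where cells with 0 to 4 *Hoxd* genes on had median numbers of genes between 3900.5 and 4171, the partial values lay between −0.24 (*Pds5b*) and 0.06 (*Smc1a*), with a median of −0.03. By run they lay between −0.20 and 0.05 in NXT0142 and between −0.39 and 0.14 in NXT0143, with medians of 0.02 and 0.06. Over 36 pairs of a member with a single *Hoxd* gene, given the genes detected, values lay between −0.25 (*Smc1a* with *Hoxd11*) and 0.20 (*Ctcf* with *Hoxd13*) in the autopod. In the zeugopod they lay between −0.20 (*Ctcf* with *Hoxd8*) and 0.24 (*Smc1a* with *Hoxd9*). *Nipbl* was between −0.05 and −0.01 with each of *Hoxd10* to *Hoxd13* in the autopod.

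**Figure D4:**
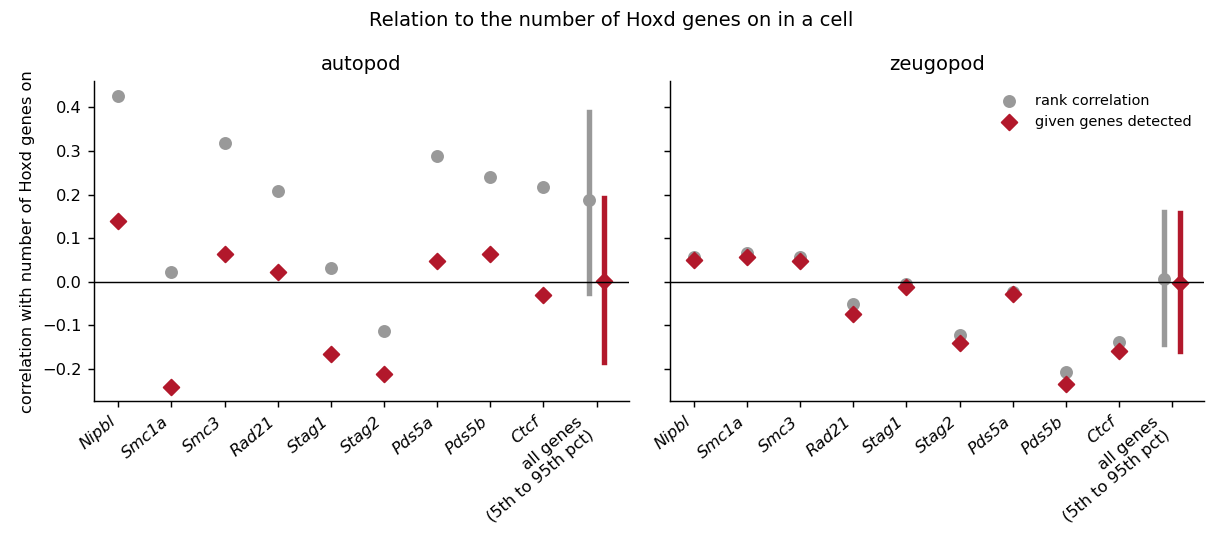
Rank correlation of each gene with the number of *Hoxd8* to *Hoxd13* genes on in a cell, without (grey) and with (red) the genes detected per cell taken into account, in autopod and zeugopod cells. Bars at the right span the 5th to 95th percentile of 4109 (autopod) and 4110 (zeugopod) genes around their median. In the autopod *Nipbl* goes from 0.43 to 0.14.

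In the autopod *Nipbl* was the member that followed the genes detected most closely. Its rank correlation with them was 0.68 in autopod cells, where the other members lay between 0.14 (*Stag2*) and 0.54 (*Smc3*) and the median gene at 0.37. The value was 0.59 after thinning to 500000 reads and 0.75 within NXT0072. Within NXT0143 it was 0.37, below *Rad21* (0.49), *Smc3* (0.42), *Pds5a* (0.42) and *Ctcf* (0.38). In zeugopod cells *Nipbl* had 0.30, below 6 of the other 8 genes, which lay between 0.14 and 0.45, and the median gene at 0.26. Among autopod cells with at least 4177 genes, the lowest number in any cell with *Hoxd10* to *Hoxd13* on, *Nipbl* had 5 reads in 23 of 26 (88.5%, 69.8 to 97.6%), and among those with fewer genes in 18 of 50 (36%, 22.9 to 50.8%). In the zeugopod the shares were 34 of 50 (68%, 53.3 to 80.5%) and 38 of 73 (52.1%, 40 to 63.9%).

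Cells with *Hoxd13* alone on and cells with the full set of *Hoxd10* to *Hoxd13* on were then set side by side. *Nipbl* was singled out for this contrast by the study from these cells, so that its values are a description. In the 16 cells with *Hoxd13* alone, all from NXT0072, *Nipbl* had 0 reads in 11 cells, 1 and 3 reads in 2 cells, and 376, 594 and 1220 reads in the other 3. In the 8 cells with *Hoxd10* to *Hoxd13*, also all from NXT0072, it had 303, 402, 435, 897, 1184, 2260, 2439 and 6186 reads. Normalized values ran from 0.113 through a median of 0.113 to 1656 in the first and from 47 through 304 to 1452 in the second. The sets overlap through 2 cells with *Hoxd13* alone, at 79.5 and 1656, and the cell with 376 reads lay below, at 15.8. The means of log2(normalized value + 1) were 1.47 and 8.10, a difference of 6.63, which ranked 63rd of 10948 genes.

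Most genes of the table were also higher in the full set. Of all genes, 51.6% were at least 1 higher and 1.52% at least 1 lower (73.7% and 1.69% of the 7275 genes with 5 reads in 25% of either set), and the median difference was 1.06. Among the members, 8 of 9 were at least 1 higher, with *Smc3* at 4.44, *Rad21* at 3.92, *Stag1* at 3.51, *Pds5a* at 2.80, *Smc1a* at 2.57, *Pds5b* at 2.23 and *Ctcf* at 2.19. *Stag2*, at 0.34, was the exception. The cells with the full set had 4177 to 6162 genes and those with *Hoxd13* alone 1992 to 4291.

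At 500000 reads, in 8 and 14 cells, *Nipbl* differed by 6.60 in log2(CPM + 1), 34.3% of all genes were at least 1 higher and 5.93% at least 1 lower, and *Nipbl* ranked 6th. Thinned cells of the full set still held more genes, with medians of 4204.5 against 2327.5. With the genes detected regressed out over the autopod cells, *Nipbl* differed by 1.11, *Stag1* by 1.18, *Rad21* by 1.01 and *Ctcf* by −1.97, against 16% of all genes at least 1 higher and 10.2% at least 1 lower, and *Nipbl* ranked 1475th. Few cells bear on *Nipbl* at a like number of genes. With at least 4177 genes, it had 5 reads in 2 of 2 autopod cells with 1 *Hoxd* gene on, 7 of 9 with 2, 5 of 6 with 3 and 9 of 9 with 4. Below 4177 genes the numbers were 0 of 3 with none, 5 of 21 with 1, 8 of 18 with 2 and 5 of 8 with 3.

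**Figure D5:**
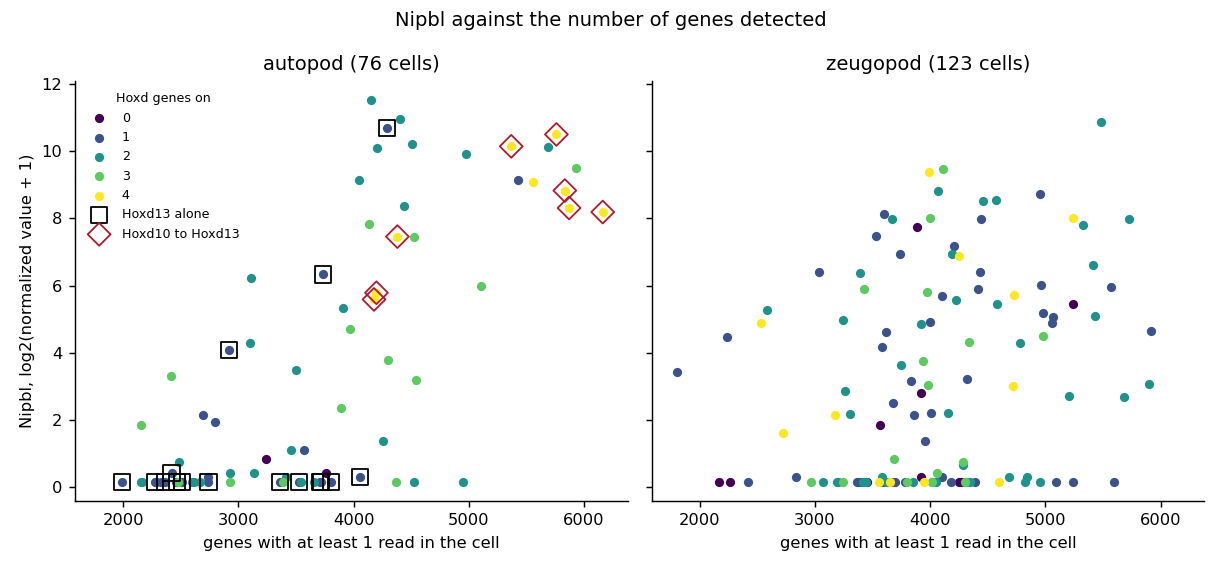
*Nipbl*, as log2(normalized value + 1), against the number of genes with at least 1 read, in autopod and zeugopod cells, coloured by the number of *Hoxd8* to *Hoxd13* genes on. Squares mark the 16 cells with *Hoxd13* alone and diamonds the 8 cells with *Hoxd10* to *Hoxd13*, and the latter lie at 4177 genes or more.

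The number of members found in a cell went with the genes detected as well. A median of 5 of the 9 genes had at least 5 reads in each tissue and run, all 9 were found in 2 autopod and 7 zeugopod cells, and 10 and 12 cells had 2 or fewer. The rank correlation with the genes detected was 0.77 in the autopod and 0.62 in the zeugopod. Once ranks were taken within each tissue and run and the genes detected regressed out, the 36 pairs of members correlated between −0.15 (*Nipbl* with *Smc3*) and 0.15 (*Rad21* with *Stag1*), with a median of 0.01. *Smc1a* with *Rad21* gave 0.15 and *Stag1* with *Stag2* 0.13.

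By the same measure over 199 cells and 4110 genes, the genes most like *Rad21* were *Mki67* (0.31), *H2afx*, a histone variant of the DNA damage response (0.30), and the mitotic kinesin *Kif11* (0.30), where the 95th percentile was 0.13. *Mki67* is also one of the cell cycle markers used above. *Nipbl* was nearest to *Chd7*, a chromatin remodeller (0.25), *Ndufc2* (0.24) and *Yars* (0.23), against 0.13. *Smc1a* was nearest to *Cmpk1* (0.33), *Phpt1* (0.31) and the chromatin protein *Dek* (0.29), and *Smc3* to *Nop56* (0.29), *Cnpy4* (0.28) and *Gpx1* (0.27). *Stag1* was nearest to *Zranb2*, *Cep57* and *Capza2* (0.26 to 0.27), *Stag2* to *Arid4a*, *Arl5b* and *Kif15* (0.25 to 0.27), and *Pds5a* to *Cyb5b*, *Tada2a* and *Hmg20b* (0.25 to 0.26). *Pds5b* was nearest to *Oxct1* (0.30), *Rps19* (0.28) and *Sf3b5* (0.27), and *Ctcf* to *Rps6kb1* (0.30), *Bap1* (0.28) and the RNA-binding *Sfpq* (0.28). Each is among the 3 highest of 4110 values, which lie above the 95th percentile by that choice, and none was tested. Runs differed, and *Mki67* with *Rad21* gave 0.44, −0.01, 0.31 and 0.27 in the 4 groups. *Cyb5b* with *Pds5a* gave 0.56, −0.03, −0.06 and 0.34.

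A list of 37 related genes, with partners and regulators of cohesin, its germline paralogs, condensin, SMC5/6 and other architectural factors, held 33 genes of the normalized table. Between the tissues 2 were at least 1 higher in the autopod, the SMC5/6 subunit *Nsmce4a* (1.86) and the zinc finger factor *Yy1* (1.07), and 2 lower, *Mau2*, the partner of *Nipbl* in the loader (−1.36), and *Nsmce1* (−1.08), with a median of −0.10 against −0.04 for all genes. The counts of 2 and 2 stand against 2.83% and 6.26% of all genes. Of genes with 5 reads in 25% of the cells of a tissue, it was 6.06% and 13.4%. Within NXT0143 *Mau2* gave −0.22, *Yy1* 0.46, *Nsmce4a* 0.32 and *Nsmce1* −1.94, while *Ldb1* (1.59) and *Ankrd11* (1.19) were higher. There 2 of the 33 genes were at least 1 higher and 1 at least 1 lower, against 10.9% and 5.17% of all genes. *Mau2*, *Yy1* and *Nsmce4a* thus had a smaller difference in size within the shared run. *Nsmce1* and *Ldb1* (0.94 over all cells) had a larger one of the same sign. *Ankrd11* changed sign, with −0.85 over all cells and −1.48 between NXT0072 autopod and NXT0142 zeugopod cells. *Wapal*, which opens the ring, was found in 76.3% of autopod and 86.2% of zeugopod cells, more often than any of the 9 members. Between the *Hoxd* sets 23 of the 33 genes were at least 1 higher and 2 lower, where 51.6% and 1.52% of all genes were (73.7% and 1.69% of the filtered genes). With the genes detected regressed out it was 6 and 3, against 16% and 10.2%.

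Germline paralogs were found in fewer cells than any member. Chosen after their values were seen, *Rad21l* was not seen in any of the 199 cells (0 reads, where 3 counts of the total give a limit of 1.51% of cells with a read), and 5 reads were reached by *Rec8* in 4 cells, *Stag3* in 6, *Smc1b* in 36 and *Ctcfl*, the paralog of *Ctcf*, in 2.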

How the data were processed

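Single cells of *Hoxd11::GFP* forelimbs were measured by RNA-seq, and the 9 genes and all lists were chosen with earlier results of these data known. Reads had been mapped by the authors to GRCm38 (bowtie2, local mode), and raw counts per gene were deposited for 225 cells. The authors also deposited a normalized signal for 10948 genes and 199 filtered cells, from spike-in size factors (centred within batches) and gene length. For the 10934 genes with a cell at 0 reads, 100% of the values were whole multiples (tolerance 1e-05) of the gene's floor, which is 1 divided by its length in kb. The columns of the 92 spike-in rows did not follow the cell names, and these rows were not used.

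From the deposited files, differences of mean log2(value + 1) between groups of cells were computed with NumPy 2.4.6 and pandas 2.3.3, and a difference of at least 1 was counted. The study ran limma over cells. Here cells of a pool were not taken as replicates, so that no such test was run. Shares of cells used at least 5 reads. Cells were thinned to 500000 reads (seed 42). Partial rank correlations used genes with at least 5 reads in 25% of cells, with the rank of genes detected as the covariate. No doublet caller was run. The remaining markers were *Sox9*, *Col2a1*, *Acan*, *Matn1* and *Col9a1* (chondrogenic), and those of muscle (*Myod1*, *Myog*, *Pax7*, *Myf5*, *Actc1*), epithelium (*Krt14*, *Krt5*, *Epcam*, *Cdh1*, *Krt8*; 3 of each required), endothelium (*Pecam1*, *Cdh5*, *Kdr*, *Emcn*; 3), macrophage (*Csf1r*, *Aif1*, *Cx3cr1*; 2) and blood, of which *Hba-x* alone was analysed and reached 5 reads in 1 autopod cell. Named genes were the 9 members, related genes with 5 reads in 25% of the cells of either tissue, *Hoxd8* to *Hoxd13*, and the 3 genes most like each member. The germline paralogs and *Ctcfl* did not reach this share and were named in addition, after their values were seen. Leaving out cells with a cell cycle marker was added after seeing the data. In the comparison of settings a value was taken as moved past 0.25 (log2), 0.1 (correlation) or the interval of a share. The calculations were tested on simulated data. Gene positions are from GENCODE M21.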

Additional observations from a re-analysis of the deposited data

Results flagged for a closer look

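*Smc1a* gave 1.92 on the log2 scale between autopod and zeugopod cells within NXT0143, *Smc3* 0.13 and *Pds5a* 0.14, each of the opposite sign to the comparison of NXT0072 autopod with NXT0142 zeugopod cells (−2.03, −2.16 and −1.12). *Rad21* gave −0.47 within NXT0143 against 2.17. These differences between the comparisons were not tested, since each tissue is 1 sample.

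In 10 of the 26 captured cells outside the normalized table, at least 5 reads of a member were counted. *Pds5b* was found in 5 of them, *Ctcf* in 4 and *Smc1a* in 3, and *Rad21* and *Pds5a* in 0 (at least 5 reads). These 26 cells had a median of 25639.5 reads on genes.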

How the results depend on the processing

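No paired analysis was possible because cells carry no pairing and each tissue is 1 sample. Of 63 alternative values of medians and of the *Nipbl* difference, 45 stayed within the tolerance and 18 moved. For single genes 65 stayed, 100 moved and 6 changed sign from a main value past 1. The median tissue difference of the 9 genes (0.27) was −0.0019 with log2(CPM + 1), −0.14 after thinning, −0.69 as a difference of medians over cells and −0.43 without cells with a cell cycle marker. The median between autopod runs (0.33) was −0.12 with CPM, 0.025 after thinning and −0.64 without marker-positive cells, and that between zeugopod runs (0.09) was −0.17 with CPM. Median shares were 68.4% (autopod) and 67.5% (zeugopod) at 1 read. For the count of active *Hoxd* genes per autopod cell, the median partial correlation (0.02) was 0.22 without the covariate and −0.10 in NXT0143 alone. The *Nipbl* difference between the *Hoxd* sets (6.63) was 6.02 with CPM, 8.49 and 4.10 with pseudocounts of 0.1 and 10, 1.11 with genes detected regressed out, 3.63 when a value of 5 alone called a *Hoxd* gene on (9 and 3 cells), and 8.10 as a difference of medians. Signs changed within NXT0143 for *Smc3* (0.13), *Rad21* (−0.47), *Smc1a* (1.92) and *Pds5a* (0.14), the last 2 from main values under 1. Without marker-positive cells the signs that changed included *Ctcf* between tissues (−0.19) and autopod runs (−0.64), *Nipbl* between tissues (−1.07, from 0.38) and autopod runs (−1.19, from 0.33), *Rad21* between autopod runs (−0.0045) and *Smc1a* between zeugopod runs (−0.081). Apart from these constructions, the cause was not tested. With 1 sample per tissue, depth and cell number limit the counting error alone, and variation between embryos is unknown.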
